A study of Mus musculus with 11 samples.

Results

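The 7 genes described here encode enzymes and a cofactor that build or degrade gangliosides: St3gal5, B4galnt1, St3gal2 and Ugcg on the synthesis side, and Hexa, Gm2a and Glb1 on the breakdown side. They were taken by symbol from gene count tables of 24411 symbols, and all 7 were found and all 7 passed the filter on low counts. The tables came from 11 poly(A) RNA libraries of microglia-like cells sorted from mouse brain in a study of competitive transplantation of blood-forming cells. Cells were delivered into the lumbar intrathecal space (ITL), into the cerebral ventricles (ICV) or intravenously (IV). Each route gave 3 libraries, namely CD45.1 cells labelled TAµ, CD45.2 cells labelled µ and CD45.1 cells labelled µ. The 2 remaining libraries were ICV CD45.2 cells with the label PBS and µ cells labelled CTR, for control, whose CD45 allele and route are not given. The labels expand neither TAµ nor PBS. They give no strain or genotype other than the CD45 allele, no age or sex, no host allele and no number of animals behind a library, and they do not say which grafted cell fraction or timing a library belongs to. Each combination of route and population was 1 library, so every p-value below covers the spread between libraries of an additive model of route and population, not between animals.

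Gangliosides are glycosphingolipids that carry sialic acid, and they are most abundant in the outer membrane of brain cells. Synthesis in the Golgi starts when Ugcg adds glucose to ceramide. After galactose is attached, St3gal5 adds the first sialic acid to make GM3, B4galnt1 extends GM3 to GM2, and St3gal2 sialylates the longer chains to make GD1a and GT1b. In the lysosome, Glb1 removes the terminal galactose of GM1, and the hexosaminidase whose alpha subunit Hexa encodes then cleaves GM2, which the Gm2a protein lifts out of the membrane for it. Inherited loss of HEXA or GM2A causes GM2 storage in human brain, and loss of GLB1 causes GM1 gangliosidosis.

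Totals per library lay between 6090589 and 21282823 counts, and 10477 to 15492 symbols had a count. The 45S pre-ribosomal transcript Rn45s took 6.98% to 25.1% of counts. All 10 genes of a microglia marker list had a count in each of the 11 libraries, but so did all 7 genes of a list for graft-derived brain macrophages, so detection alone does not tell these cell types apart. The microglia markers summed to 11288 CPM (each count relative to its library total) in PBS, 12492 to 23638 CPM in the 9 libraries and 34149 CPM in CTR. These are bulk sorted samples, in which fewer cells of a type and less RNA per cell cannot be told apart.

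Per kilobase of exon, Hexa was the most abundant of the 7 transcripts, at 214 ± 37.8 CPM per kb (SD, n = 9 libraries of the 3 populations and 3 routes). Gm2a followed at 58.4 ± 18.6 CPM per kb. St3gal5, B4galnt1, Glb1 and Ugcg came next at 25.2 ± 21.1, 24.7 ± 7.82, 22.3 ± 7.30 and 20.6 ± 4.98 CPM per kb, and these neighbours lay within each other's spread. St3gal2 was the lowest at 11.6 ± 7.19 CPM per kb. The genes varied to very different degrees: the highest of the 9 libraries exceeded the lowest 28.9-fold for St3gal5, 5.99-fold for St3gal2 and 3.96-fold for B4galnt1, but 2.63-fold for Glb1, 2.49-fold for Gm2a, 1.97-fold for Ugcg and 1.72-fold for Hexa. The coefficient of variation on the CPM scale was 83.5% for St3gal5 and 17.6% for Hexa.

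**Figure D1:**
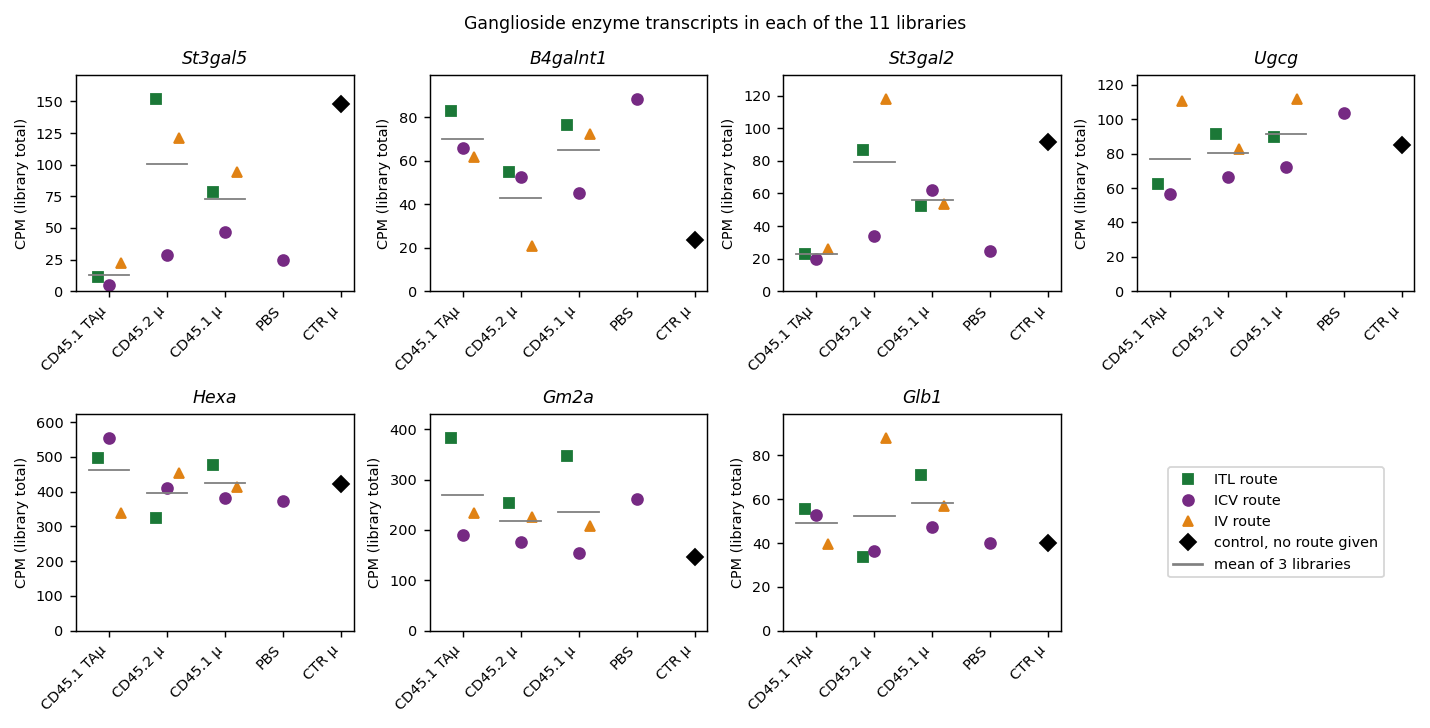
Level of each of the 7 transcripts (vertical axis, CPM of the library total, linear from 0) in each of the 11 libraries, grouped by population, with marker shape and colour for the route and a grey line for the mean of 3 libraries. Among the 9 libraries of the 3 populations, St3gal5 and St3gal2 are lowest in TAµ, Hexa and Ugcg overlap between populations, and ITL holds the highest Gm2a value of each population; the PBS library has 24.5 CPM of St3gal2, within the TAµ range.

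St3gal5, the GM3 synthase, was the 1 gene of the 7 that fell in TAµ cells past the threshold against both other populations. It had 11.7, 5.27 and 22.0 CPM in the ITL, ICV and IV TAµ libraries, against 152, 28.6 and 121 CPM in CD45.2 µ and 78.6, 46.8 and 94.4 CPM in CD45.1 µ. The 3 TAµ libraries lay below all 6 µ libraries, while the ranges of CD45.2 µ and CD45.1 µ overlapped. The ICV library labelled PBS, outside the fit, had 24.6 CPM of St3gal5, between the highest TAµ value and the lowest µ value. The lowest value rested on 63 counts in ICV TAµ (exact 95% Poisson interval 4.05 to 6.74 CPM, counting error only). The means were 13.0 ± 8.46, 101 ± 64.3 and 73.3 ± 24.3 CPM in TAµ, CD45.2 µ and CD45.1 µ (SD, n = 3 each).

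In edgeR's quasi-likelihood fit with Benjamini-Hochberg adjustment over 13339 genes, the log2 fold change of St3gal5 in TAµ was -2.48 ± 0.40 (SE) against CD45.1 µ (adjusted p = 0.0188) and -2.76 ± 0.40 against CD45.2 µ (adjusted p = 0.00218). These contrasts share the TAµ libraries and are not independent. St3gal5 was 1 of 7 members called lower in the first, where 0.0525% of all genes were called lower and 0.0225% higher (7 and 3 genes; 6 and 1 with Rn45s and small nucleolar RNAs removed), and 1 of 7 in the second, where 0.27% were called lower and 0.075% higher. Within the ITL, ICV and IV routes the log2 difference from CD45.1 µ was -2.75, -3.15 and -2.10, and that from CD45.2 µ was -3.71, -2.44 and -2.46, so it was lower in TAµ in all 6 pairs. The call against CD45.1 µ did not hold without any 1 of the 6 libraries it compares: the adjusted p was 0.228, 0.0669 and 0.419 without the ITL, ICV and IV TAµ library, and 0.152, 0.298 and 0.0618 without the ITL, ICV and IV CD45.1 µ library, with the log2 fold change between -2.75 and -2.25 over all libraries left out in turn. It was also lost at a filter of 10 CPM in 3 libraries (adjusted p = 0.0799) and without the route term (0.329). The call against CD45.2 µ was lost without the ITL TAµ library (adjusted p = 0.0520) and without the IV TAµ library (0.100). Without the 2 libraries with the fewest genes detected, which were ICV CD45.1 µ and IV CD45.2 µ, both calls held, at -2.22 ± 0.33 (adjusted p = 0.0390) and -3.05 ± 0.36 (adjusted p = 0.00508).

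Other features were compared between TAµ and µ libraries, and some differed without overlap while others overlapped. Sall1, which encodes a transcription factor of resident microglia, had 7.99, 6.44 and 2.23 CPM in the ITL, ICV and IV TAµ libraries, against 683, 172 and 513 CPM in CD45.2 µ and 360, 118 and 79.8 CPM in CD45.1 µ. The summed microglia markers were 12492 to 16324 CPM in TAµ, 15618 to 23638 CPM in CD45.2 µ and 14418 to 23249 CPM in CD45.1 µ, ranges that overlapped. Those of graft-derived brain macrophages, with all 7 genes detected in each library, summed to 18813 to 29162 CPM in TAµ. They summed to 4708 to 20920 CPM in CD45.2 µ and 19233 to 25657 CPM in CD45.1 µ, and both ranges overlapped TAµ. Most of each sum was the 1 gene Apoe, at 17039 to 27280 CPM in TAµ. Apoe had 4194 to 19521 CPM in CD45.2 µ and 17537 to 24083 CPM in CD45.1 µ. Markers of border-associated macrophages summed to 1780.3 to 2289 CPM in TAµ. This was above the 477 to 1602 CPM of CD45.2 µ and overlapped the 1786 to 2491 CPM of CD45.1 µ. All 6 genes were detected except Cbr2 in IV CD45.2 µ. A list of 6 T and NK cell genes summed to 6.94 to 10.5 CPM in TAµ. It had at most 0.658 CPM in CD45.2 µ and at most 3.23 CPM in CD45.1 µ. All 6 had a count in the ITL and IV TAµ libraries, and Nkg7, Cd8a and Ncr1 were at 0 in ICV TAµ. Other lists had larger sums, highest in single libraries. Neutrophil genes summed to 7430 CPM in IV CD45.1 µ and 503 to 3070 CPM elsewhere. Choroid plexus genes had 1382 CPM in ICV CD45.1 µ and 3.93 to 155 CPM elsewhere. Oligodendrocyte genes had 1134 CPM in ICV TAµ and 102 to 902 CPM elsewhere. More symbols had a count in TAµ (13560 to 15492) than in CD45.1 µ (11456 to 12232), while CD45.2 µ (10477 to 14668) overlapped TAµ. Rn45s took 8.95% to 25.1% of counts in TAµ, 8.67% to 21.8% in CD45.2 µ and 6.98% to 12.1% in CD45.1 µ. Xist, the transcript of the inactive X chromosome, had 12.3 to 429 CPM in TAµ, 4028 to 6399 CPM in CD45.2 µ and 295 to 6291 CPM in CD45.1 µ, so that TAµ and CD45.2 µ did not overlap. Xist was called lower in TAµ against both, at -4.01 ± 0.54 (SE) log2 units against CD45.1 µ (edgeR adjusted p = 0.00729) and -6.25 ± 0.62 against CD45.2 µ (adjusted p = 8.52e-05). The Y-linked gene Ddx3y had 109 to 289 CPM in TAµ, 0.611 to 31.8 CPM in CD45.2 µ and 35.5 to 245 CPM in CD45.1 µ. It was called higher in TAµ against CD45.2 µ (edgeR adjusted p = 0.000197) and not against CD45.1 µ (adjusted p = 0.874). The part of these differences in the result was not tested.

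St3gal2, which adds the outer sialic acid of GD1a and GT1b, had the same order of populations. Its values were 22.7, 19.7 and 25.7 CPM in the ITL, ICV and IV TAµ libraries, against 86.4, 33.9 and 118 CPM in CD45.2 µ and 52.4, 62.0 and 53.4 CPM in CD45.1 µ. All 3 TAµ values were below all 6 µ values, and ICV CD45.2 µ, at 33.9 CPM, was the lowest of the µ libraries. The ICV library labelled PBS, outside the fit, had 24.5 CPM of St3gal2, within the TAµ range. Lower values without overlap were found for 2 of 7 members, St3gal5 and St3gal2, in both contrasts. Of all genes, 6.33% had this pattern against CD45.1 µ, where 7.89% had the opposite one, and 4.78% had it against CD45.2 µ. The fitted log2 fold change of St3gal2 in TAµ was -1.20 ± 0.40 (SE) against CD45.1 µ (edgeR adjusted p = 0.819) and -1.62 ± 0.40 against CD45.2 µ (adjusted p = 0.119), so neither passed. The second passed without the ICV CD45.2 µ library (-2.02, adjusted p = 0.0166) and with DESeq2 (adjusted p = 0.0195).

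B4galnt1, the GM2 and GD2 synthase, was not low in TAµ. It had 82.9, 65.9 and 61.7 CPM in the ITL, ICV and IV TAµ libraries, against 54.8, 52.3 and 20.9 CPM in CD45.2 µ and 76.5, 45.3 and 72.4 CPM in CD45.1 µ. All TAµ values lay above all CD45.2 µ values, a pattern held by 1 of 7 members and by 6.29% of all genes, and they overlapped those of CD45.1 µ. The log2 fold change in TAµ was 0.19 ± 0.37 (SE) against CD45.1 µ (edgeR adjusted p = 0.952) and 0.80 ± 0.38 against CD45.2 µ (adjusted p = 0.738), and neither passed. In the GENCODE annotation B4galnt1 shares exon sequence with Slc26a10 on the opposite strand, and the strand setting of the counting is not given, so its level is uncertain to that extent. Slc26a10 had 9.39 CPM in IV CD45.1 µ and at most 0.836 CPM in the other 10 libraries.

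Ugcg, the glucosylceramide synthase at the head of the pathway, overlapped between all populations. It had 62.5, 56.9 and 110.5 CPM in the ITL, ICV and IV TAµ libraries, against 91.5, 66.7 and 82.5 CPM in CD45.2 µ and 90.0, 72.5 and 112 CPM in CD45.1 µ. The IV libraries of both CD45.1 populations were the highest and the ICV TAµ library the lowest. Its log2 fold change in TAµ was -0.16 ± 0.29 (SE) against CD45.1 µ (edgeR adjusted p = 0.948) and -0.023 ± 0.29 against CD45.2 µ (adjusted p = 0.999).

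The 3 breakdown genes did not pass in any population contrast. Hexa, the alpha subunit of the GM2-cleaving hexosaminidase, had 497, 554.8 and 338 CPM in the ITL, ICV and IV TAµ libraries, against 323, 412 and 454 CPM in CD45.2 µ and 476, 382.5 and 413 CPM in CD45.1 µ. Its TAµ values spanned nearly the whole range, and its log2 fold change in TAµ was 0.24 ± 0.26 (SE) against CD45.1 µ and 0.30 ± 0.26 against CD45.2 µ (edgeR adjusted p = 0.909 and 0.914). Gm2a, the GM2 activator, had 383, 189 and 233 CPM in TAµ, against 253, 176 and 226 CPM in CD45.2 µ and 346.5, 153.5 and 208 CPM in CD45.1 µ, in the same order of routes. Among the 3 populations the TAµ library was the highest of each route, though the ICV library labelled PBS, at 260.4 CPM, was above ICV TAµ. Gm2a had log2 fold changes of 0.32 ± 0.24 (SE) against CD45.1 µ and 0.31 ± 0.24 against CD45.2 µ (adjusted p = 0.880 and 0.897). Glb1, the lysosomal beta-galactosidase, had 55.5, 53.0 and 39.5 CPM in TAµ, against 33.5, 36.2 and 88.0 CPM in CD45.2 µ and 70.9, 47.2 and 56.9 CPM in CD45.1 µ. Its highest value came from IV CD45.2 µ, the library with the fewest genes detected, and its log2 fold changes in TAµ were -0.093 ± 0.39 (SE) and 0.017 ± 0.40 against CD45.1 µ and CD45.2 µ (adjusted p = 0.981 and 0.999). Glb1 shares exon sequence with Tmppe on the same strand; Tmppe was at 1.31 CPM in that library and at 24.8 to 36.9 CPM in the other 10.

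Between the µ populations, 0 of 7 members passed in CD45.2 µ against CD45.1 µ (edgeR's quasi-likelihood test), where 0.03% of all genes were called lower and 0.0% higher. Among the 4 genes called lower were the Y-linked Ddx3y, Uty and Kdm5d (edgeR adjusted p = 0.0358, 0.0423 and 0.0444). At an unadjusted p under 0.05 the contrast held 1172 of 13339 genes and, again, 0 of the 7 members. None of the 7 separated these populations, a pattern shown by 4.45% of genes with higher and 5.64% with lower values. The largest fitted differences were -0.61 ± 0.39 (SE) log2 units for B4galnt1 (edgeR adjusted p = 0.648) and 0.42 ± 0.36 for St3gal2 (adjusted p = 0.736). For St3gal5 the difference was 0.28 ± 0.33 (adjusted p = 0.806), and it changed sign between routes, at 0.95, -0.71 and 0.36 log2 units in ITL, ICV and IV.

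**Figure D2:**
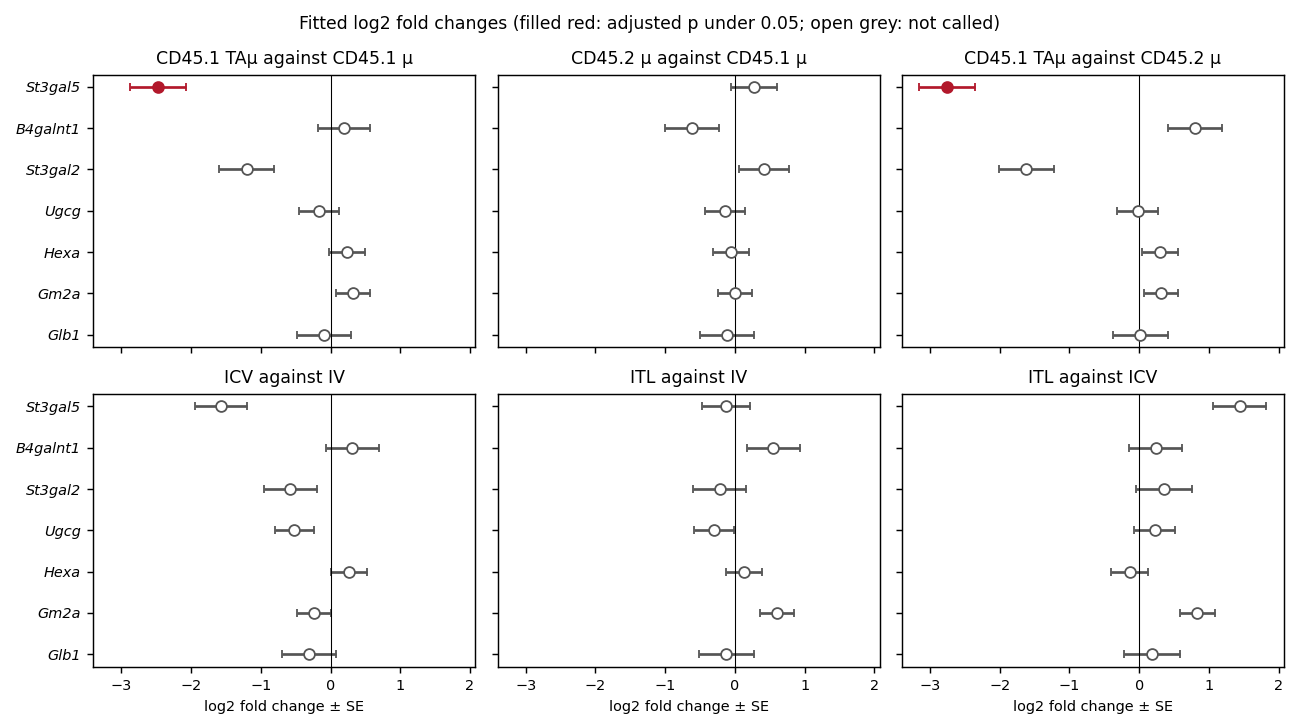
Fitted log2 fold change ± SE (horizontal axis) of each of the 7 genes in the 6 contrasts of the 9-library fit, with genes past an adjusted p of 0.05 in filled red and all others in open grey. St3gal5 is the filled point in both contrasts of TAµ, at -2.48 and -2.76, and the route contrasts hold no filled point.

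Delivery routes were compared with population as the other term of the same fit, and 0 of 7 members passed in any of the 3 route contrasts by edgeR's quasi-likelihood test. At an unadjusted p under 0.05 were St3gal5 in ICV against IV, Gm2a in ITL against IV, and both of these genes in ITL against ICV. Of all genes, 0.0% were called either way in ICV against IV and in ITL against ICV, where 1230 and 506 genes had an unadjusted p under 0.05, and 0.0075% were called higher and 0.21% lower in ITL against IV (714 at an unadjusted p under 0.05). Among these 9 libraries, Gm2a separated all 3 routes. It averaged 327 ± 66.9 CPM in ITL, 173 ± 18.1 CPM in ICV and 222 ± 12.6 CPM in IV (SD, n = 3 each). Within the 9 libraries the lowest ITL value was 253 CPM, IV ran from 208 to 233 CPM, and the highest ICV value was 189 CPM. The PBS library, also ICV and outside the fit, had 260.4 CPM of Gm2a, above every IV value and above the lowest ITL value. Its fitted differences were 0.83 ± 0.25 (SE) log2 units in ITL against ICV (edgeR adjusted p = 0.846), 0.60 ± 0.24 in ITL against IV (adjusted p = 0.816) and -0.23 ± 0.24 in ICV against IV (adjusted p = 0.780). Gm2a was the 1 member of 7 with higher values without overlap in ITL against ICV, a pattern of 6.47% of all genes (3.28% were lower without overlap), and in ITL against IV, a pattern of 4.74% (6.84% lower).

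St3gal5 was lower in the ICV than in the IV library of each population, by -2.06, -2.09 and -1.01 log2 units in TAµ, CD45.2 µ and CD45.1 µ. The fitted difference was -1.57 ± 0.37 (SE), which missed the threshold after adjustment in edgeR's test (adjusted p = 0.223) and passed it with DESeq2 (-1.56, adjusted p = 0.0182). In ITL against ICV it was 1.44 ± 0.38 (SE, edgeR adjusted p = 0.719). The ranges of St3gal5 by route overlapped over the 3 populations. Ugcg and Gm2a were lower without overlap in ICV than in IV, 2 of 7 members where 7.01% of all genes had this pattern and 3.06% the opposite one. This holds for the 9 libraries: with the ICV library labelled PBS counted, at 103.7 CPM of Ugcg and 260.4 CPM of Gm2a, both genes overlap. Ugcg averaged 65.4 ± 7.92 CPM in ICV and 102 ± 16.6 CPM in IV (SD, n = 3 each), with a fitted difference of -0.52 ± 0.28 (SE) log2 units (edgeR adjusted p = 0.588). The other members had adjusted p-values of 0.646 or more in ICV against IV.

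Ratios of partner transcripts within a library do not depend on its total. The ratio of B4galnt1 to St3gal5 counts, the step after GM3 over the step that makes it, was 7.11, 12.5 and 2.80 in the ITL, ICV and IV TAµ libraries, against 0.360, 1.83 and 0.173 in CD45.2 µ and 0.972, 0.969 and 0.767 in CD45.1 µ. The TAµ ratios were above all others of the 9, the next being 1.83 in ICV CD45.2 µ, and CD45.1 µ held the narrowest range. The PBS library, at 3.59, lay within the TAµ range, and CTR was at 0.160. The ratio of St3gal5 to Ugcg was 0.187, 0.0926 and 0.199 in TAµ, 1.66, 0.428 and 1.47 in CD45.2 µ, and 0.874, 0.645 and 0.842 in CD45.1 µ. Gm2a to Hexa was 0.770, 0.341 and 0.688 in TAµ, 0.784, 0.428 and 0.498 in CD45.2 µ, and 0.728, 0.401 and 0.504 in CD45.1 µ, with ITL highest and ICV lowest in each population.

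**Figure D3:**
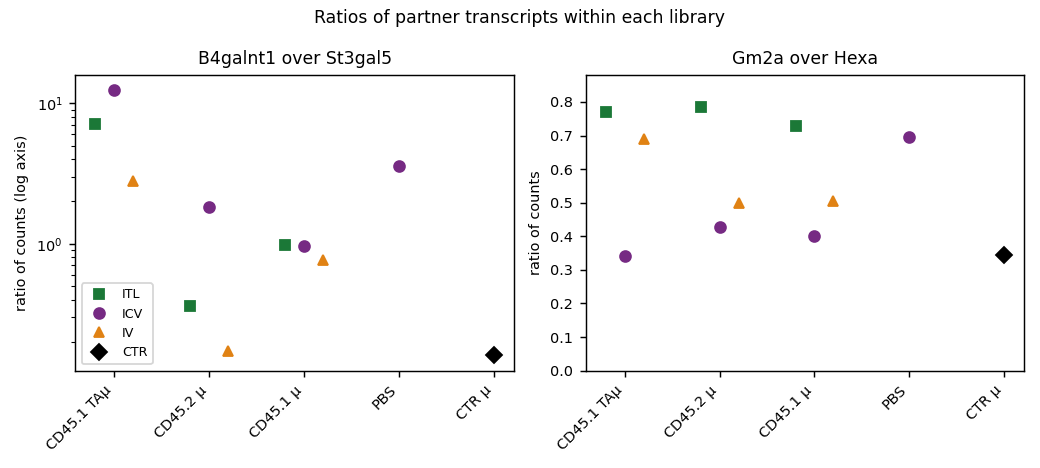
Ratio of read counts of partner genes (vertical axis; logarithmic for B4galnt1 over St3gal5, linear from 0 for Gm2a over Hexa) in each of the 11 libraries by population and route. B4galnt1 over St3gal5 lies at 2.80 to 12.5 in TAµ, at 3.59 in PBS and at 0.160 in CTR, and Gm2a over Hexa is highest in the ITL library of each population.

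Set beside the single CTR library, the 9 post-transplant libraries had less St3gal5 and St3gal2 and more B4galnt1 and Gm2a on average. With 1 CTR library these differences have no replicate check. Markers of macrophages also differed between CTR and the 9. Those of graft-derived brain macrophages summed to 4708 to 29162 CPM in the 9 libraries and 632 CPM in CTR. Apoe alone made up most of this, with 4194 to 27280 CPM in the 9 and 530 CPM in CTR. Markers of border-associated macrophages summed to 477 to 2491 CPM in the 9 and 211 CPM in CTR. Xist was at 0 CPM in CTR, where the Y-linked gene Ddx3y had 172 CPM. The 9 libraries had 12.3 to 6399 CPM of Xist and 0.611 to 289 CPM of Ddx3y. The part of these markers and sex-linked transcripts in the differences was not tested. St3gal5 averaged 62.3 ± 52.0 CPM (SD) in the 9 libraries and was at 148 CPM in CTR, a ratio of 0.422, and 8 of the 9 lay below CTR, ITL CD45.2 µ being the exception. St3gal2 averaged 52.7 ± 32.7 CPM and was at 91.6 CPM in CTR, with 8 of the 9 below and IV CD45.2 µ above. B4galnt1 averaged 59.2 ± 18.7 CPM and was at 23.6 CPM in CTR, a ratio of 2.50, with 8 of the 9 above and IV CD45.2 µ, at 20.9 CPM, below. CD45.2 µ thus supplied each exception, and its ITL and IV libraries were also the nearest to CTR in St3gal5.

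Gm2a was the 1 member of 7 for which CTR fell outside the range of the 9 libraries. They averaged 241 ± 76.8 CPM and CTR had 146 CPM, a ratio of 1.65, and its lowest post-transplant library, ICV CD45.1 µ at 153.5 CPM (exact 95% interval 146.3 to 161.0), was within counting error of CTR (139.5 to 152.7). Of all genes with a mean count of at least 10, 7.31% had all 9 libraries above CTR and 5.21% all 9 below. Without IV CD45.2 µ the count of members outside the range was 3, and without ITL CD45.2 µ it was 2. A mean of the 9 at least 2-fold higher was found for 21.0% of genes, B4galnt1 among them, and one at least 2-fold lower for 3.84%, St3gal5 among them. Hexa, at 428 ± 75.4 CPM in the 9 and 423 CPM in CTR, and Ugcg, at 82.8 ± 20.0 and 85.0 CPM, had ratios of 1.01 and 0.975. Glb1 averaged 53.4 ± 17.5 CPM in the 9 and had 40.0 CPM in CTR, with 6 of the 9 above.

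**Figure D4:**
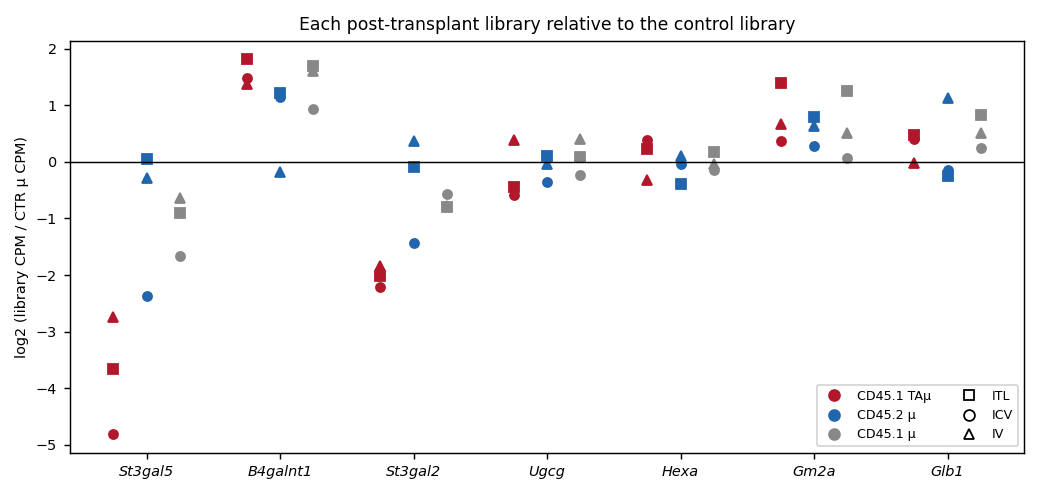
Log2 ratio of each of the 9 post-transplant libraries to the CTR library (vertical axis, CPM of the library total) for the 7 genes, with colour for the population and shape for the route. All 9 points of Gm2a lie above the line at 0, which marks the CTR level, and the TAµ points of St3gal5 and St3gal2 lie below all other points of their gene.

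The ICV CD45.2 library labelled PBS was set beside ICV CD45.2 µ, the library of the same route and allele. The ratio of PBS to µ was 1.69 for B4galnt1 (exact 95% interval 1.57 to 1.82), 1.55 for Ugcg (1.45 to 1.67) and 1.48 for Gm2a (1.42 to 1.54). It was 0.862 for St3gal5 (0.763 to 0.973), 0.721 for St3gal2 (0.641 to 0.811), 0.908 for Hexa (0.880 to 0.937) and 1.10 for Glb1 (0.998 to 1.22). These intervals cover counting error of 2 libraries only, and the median ratio over 10823 genes was 1.11. With respect to a 2-fold difference, 0 of 7 members were past it, where 5.96% of genes were at least 2-fold higher and 3.64% at least 2-fold lower in PBS. St3gal5 was low in both, at 24.6 CPM in PBS and 28.6 CPM in ICV CD45.2 µ.

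Promoter sequences from RefSeq (GRCm38.p6, from 250 bases before to 50 after the gene start) matched 5 of the 7 genes, B4galnt1 and St3gal2 having no entry. Both strands were searched for TCACGTGA, the lysosomal gene element bound by TFEB in human cells, for its core CACGTG, which TCACGTGA contains, and for GAGGAAGT, a form of the site of the myeloid factor PU.1. These are held by 0.974%, 7.15% and 3.20% of 32851 promoters. The 1 match among the 5 was CACGTG in Glb1. Sequences are shown for St3gal5 (chr6:72097358-72097657, plus strand), the gene that was lower in TAµ, and for Glb1 (chr9:114400828-114401127, plus strand), with the match in capitals.
St3gal5: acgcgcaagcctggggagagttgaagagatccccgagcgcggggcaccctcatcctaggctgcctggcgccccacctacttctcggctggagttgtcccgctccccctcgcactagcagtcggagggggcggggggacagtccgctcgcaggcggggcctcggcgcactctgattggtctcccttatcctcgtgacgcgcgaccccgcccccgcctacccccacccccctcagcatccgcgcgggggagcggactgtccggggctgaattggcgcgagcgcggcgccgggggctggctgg
Glb1: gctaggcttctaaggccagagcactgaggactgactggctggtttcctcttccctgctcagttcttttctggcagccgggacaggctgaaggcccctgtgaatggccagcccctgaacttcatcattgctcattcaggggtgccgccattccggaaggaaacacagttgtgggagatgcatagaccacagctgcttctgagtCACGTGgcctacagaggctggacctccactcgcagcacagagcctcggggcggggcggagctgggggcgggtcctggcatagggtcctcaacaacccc
The St3gal5 stretch was 72.7% G and C and that of Glb1 60.7%, against a median of 52.7% over all promoters. A match describes letters in this window and not binding.

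Other genes of the pathway were followed in 5 lists of 61 genes, of which 58 were in the tables and 48 passed the filter on low counts: glycosphingolipid synthesis, sialic acid supply, sphingolipid breakdown, ceramide synthesis and lysosome gene regulators. None of the 48 passed in any of the 6 contrasts by edgeR's quasi-likelihood test. At an unadjusted p under 0.05 there were 1 in TAµ against CD45.1 µ, 5 in TAµ against CD45.2 µ, 9 in CD45.2 µ against CD45.1 µ, 4 in ICV against IV, 2 in ITL against IV and 2 in ITL against ICV. Over all 13339 genes the numbers were 715, 901, 1172, 1230, 714 and 506 in the same order of contrasts. In TAµ against CD45.1 µ the median log2 fold change was 0.041 for 14 other synthesis genes and 0.081 for 13 other breakdown genes, beside -0.093 for the 7 members and 0.057 for all genes. In TAµ against CD45.2 µ the medians were 0.69, 0.077, 0.017 and 0.098 in the same order of sets. There, 0 of the 14 synthesis genes had an unadjusted p under 0.05 by edgeR's quasi-likelihood test. Among the 14 were the barely detected A4galt, St8sia1 and St6galnac3, at most 4.48, 3.47 and 3.09 CPM in the 9 libraries. Their log2 fold changes were 2.62 ± 2.28, 1.99 ± 1.64 and 1.22 ± 1.56 (SE). Among synthesis genes, the lactosylceramide synthases B4galt5 and B4galt6, which act between Ugcg and St3gal5, had different patterns. B4galt5 had 48.9, 21.9 and 57.8 CPM in TAµ, 76.3, 44.5 and 74.6 CPM in CD45.2 µ and 40.6, 22.1 and 28.7 CPM in CD45.1 µ, in the order ITL, ICV and IV. All CD45.2 µ values were above all CD45.1 µ values, with a log2 fold change of 1.15 ± 0.34 (SE, edgeR adjusted p = 0.485). B4galt6 had 136, 121 and 134 CPM in CD45.2 µ, against 179, 238 and 212 CPM in CD45.1 µ, the opposite order, with a log2 fold change of -0.64 ± 0.24 (adjusted p = 0.502). B3galt4, which makes GM1, and St8sia1, which makes GD3, were low, at no more than 12.6 and 3.47 CPM in the 9 libraries and 0 in at least 1 of them, and the plasma membrane sialidase Neu3 had no more than 6.94 CPM.

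On the sialic acid side, Cmah, which converts one form of sialic acid into another in mouse, had 103, 101 and 129 CPM in TAµ, against 10.7, 117 and 24.2 CPM in CD45.2 µ and 135, 274 and 89.5 CPM in CD45.1 µ. Its ITL and IV CD45.2 µ values were the lowest of the 9 libraries, CTR had 3.29 CPM, and its log2 fold change in CD45.2 µ against CD45.1 µ was -1.73 ± 0.44 (SE, edgeR adjusted p = 0.432). Among breakdown genes, Galc, the lysosomal galactosylceramidase, had 186, 220 and 173 CPM in TAµ, against 81.6, 163 and 65.0 CPM in CD45.2 µ and 216, 207 and 138 CPM in CD45.1 µ, and 33.7 CPM in CTR. The TAµ values lay above those of CD45.2 µ without overlap, at 1.03 ± 0.28 (SE) log2 units (adjusted p = 0.193). Gla, the lysosomal alpha-galactosidase, followed route: it averaged 63.6 ± 21.2 CPM in ITL, 51.4 ± 22.0 CPM in ICV and 155 ± 23.3 CPM in IV (SD, n = 3 each). Its fitted differences were -1.50 ± 0.33 (SE) log2 units in ICV against IV and -1.28 ± 0.33 in ITL against IV (edgeR adjusted p = 0.153 and 0.222). Psap, the precursor of the saposins that help lysosomal hydrolases reach their lipids, had 2855 to 2965 CPM in TAµ, 2190 to 2225 CPM in CD45.2 µ and 2068 to 2889 CPM in CD45.1 µ. It was 0.49 ± 0.22 (SE) log2 units higher in TAµ than in CD45.2 µ, which did not pass (adjusted p = 0.693).

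**Figure D5:**
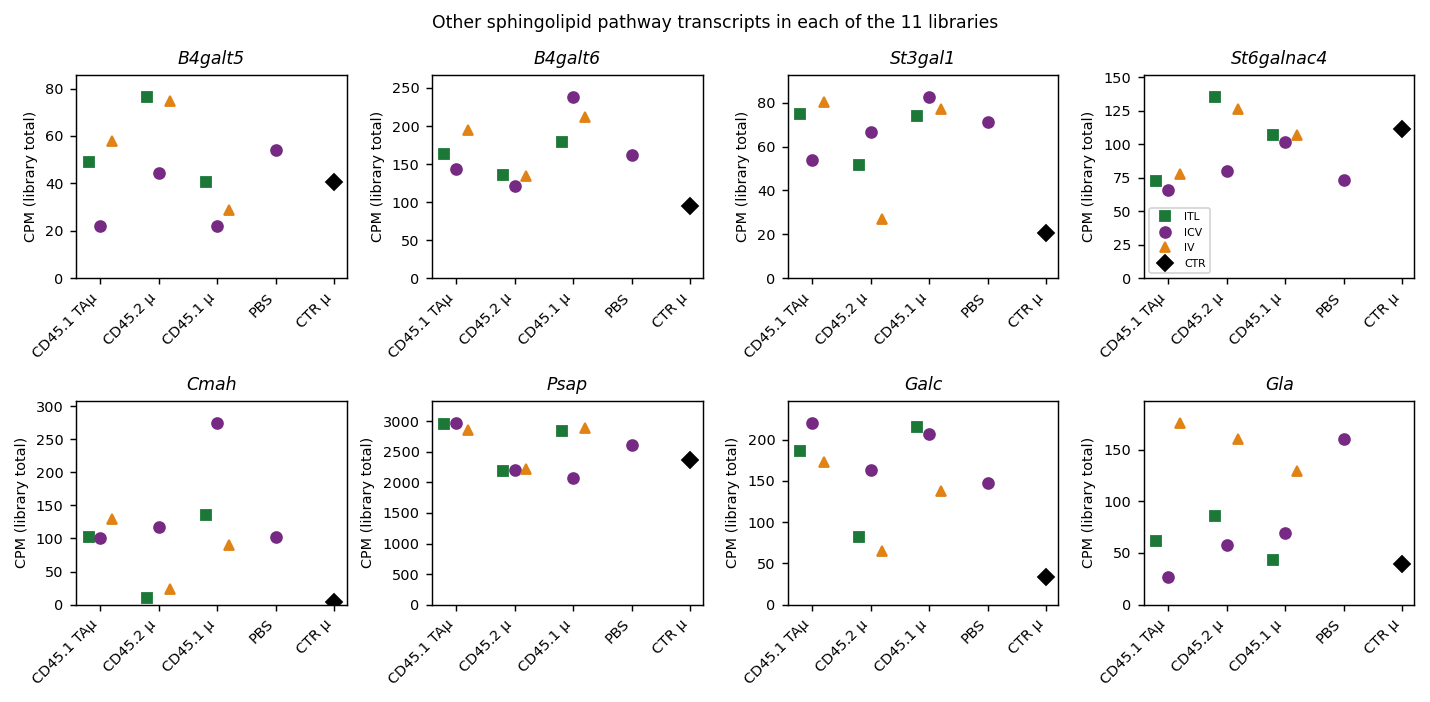
Level of 8 other sphingolipid pathway transcripts (vertical axis, CPM of the library total, linear from 0) in each of the 11 libraries by population and route, chosen after their values were seen. Cmah and Galc are lowest in CTR and in the ITL and IV libraries of CD45.2 µ, and the IV libraries hold the highest Gla value of each population.

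Across all 11 libraries St3gal5 and St3gal2 ran together, with Pearson's r of 0.93 and Spearman's rho of 0.93 on log2 CPM. Libraries share depth and composition, and populations of a route may share animals, so this and the following correlations are descriptions. B4galnt1 ran against St3gal2 (r = -0.75, rho = -0.75). Both sialyltransferase genes followed Sall1, with r of 0.84 each. With Apoe, r was -0.63 for St3gal5, -0.67 for St3gal2 and 0.75 for B4galnt1. For St3gal5 and Xist, r was -0.03 over the 11 libraries. These include CTR, with 0 CPM of Xist and 148 CPM of St3gal5, and PBS, with 6118 and 24.6 CPM. The value is therefore not one for the 9 libraries, and the part of Xist was not tested. Among 7889 genes with a mean of at least 3 log2 CPM, those most like St3gal5 were Lrrc3 (r = 0.966), D15Ertd621e (0.954) and Plcd1 (0.953). Those most like St3gal2 were Plcl2 (0.974), St6galnac4 (0.963), which encodes another sialyltransferase, and Fam102b (0.962). Those most like B4galnt1 were Fam20c (0.957), Pfkfb4 (0.940) and Stard13 (0.935), and those most like Ugcg were Tmem170b (0.945), Tug1 (0.936) and Camsap2 (0.934). The breakdown genes had less close neighbours: Gpx1 (0.932), Fcgr4 (0.888) and Lat2 (0.882) for Gm2a, Rplp1 (0.900), Itm2b (0.842) and Rps15 (0.842) for Hexa, and Sirt2 (0.884), Ash2l (0.881) and Nsa2 (0.875) for Glb1.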

How the data were processed

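Microglia-like cells from mouse brain were measured by RNA sequencing in 11 libraries. For each library the authors deposited a table of raw counts, as whole numbers per gene symbol and not normalized. The submitters' processing notes name STAR and the genome mm39 (GRCm39). The STAR version, annotation and strand setting were not given in the sources used here. The labels do not say whether libraries came from separate animals.

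Levels are CPM on the library total. A count of 0 allowed up to 0.141 to 0.493 CPM (3 counts), and intervals at 95% cover counting error only, since PCR copies of a molecule cannot be recognised. Genes were filtered with filterByExpr (minimum count 10, minimum total 15; 13339 kept), scaled by TMM and fitted in edgeR 4.0.16 (R 4.3.3) by quasi-likelihood, with route and population as additive terms in 9 libraries and 4 residual degrees of freedom. Adjusted p-values are Benjamini-Hochberg over all genes, at 0.05. In this fit the spread of each gene was moderated with that of the other genes, so its p-value does not rest on the 4 degrees of freedom alone. The SE is the absolute log2 fold change over the square root of F. CTR and PBS, 1 library each, were not tested. Interactions of route and population were not testable. The fit was tested on simulated data. Alternatives used DESeq2 1.42.0, limma 3.58.1, other scalings, filters and library sets. Exon lengths and overlaps came from GENCODE M21 and promoters from RefSeq.

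The genes and lists were chosen with earlier results of these data known. All 7 were examined in every comparison, though not every fitted difference is printed. Of the pathway lists, the plan was to name genes past the threshold or up to 4 with the smallest p-values per list. Psap, Neu3, St8sia1, B4galt5 and B3galt4 were to be followed as well. Only some of these genes are named, and no value is given for single genes of the ceramide synthesis and lysosome gene regulator lists. Some results are not reported here. Values of St6galnac4, St3gal1, A4galt, St6galnac3, Slc26a10 and Tmppe, and the neutrophil, choroid plexus and oligodendrocyte sums, were chosen after they were seen.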

Additional observations from a re-analysis of the deposited data

How the results depend on the processing

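Counts of genes called in CD45.1 TAµ against CD45.1 µ (10) were 18 with library totals alone, 23 with no filter, 2 with a filter of 10 CPM in 3 libraries, 217 with DESeq2, 3 with the legacy fit, 2 without the route term and 24 with all 11 libraries. In CD45.2 µ against CD45.1 µ (4) they were 0 with the 10 CPM filter, voom, the legacy fit, no route term and the 6 libraries alone, and 277 with DESeq2. In TAµ against CD45.2 µ (46) they were 25 with the 10 CPM filter, 193 with DESeq2, 80 with voom, 22 with the legacy fit, 29 without the route term and 22 with the 6 libraries alone. In ICV against IV (0) they were 3 with library totals, 8 with no filter, 147 with DESeq2, 1 with the 6 libraries alone and 6 with all 11. In ITL against IV (29) they were 12 with the 10 CPM filter, 150 with DESeq2, 66 with voom, 10 with the legacy fit, 13 without the population term and 49 without the 2 libraries with the fewest genes. In ITL against ICV (0) they were 2 with no filter, 30 with DESeq2, 1 with the 6 libraries alone, 2 with all 11 and 2 without those 2 libraries. Leaving out single libraries gave 0 to 24, 0 to 29, 5 to 159, 0 to 28, 0 to 35 and 0 to 3 in the same order of contrasts, and 1 to 3 members outside the CTR range. The causes were not tested. Library totals alone moved the median log2 fold change of all genes to -0.060 in CD45.1 TAµ against CD45.1 µ, against 0.057 with TMM, and to -0.059 in ICV against IV, against 0.065. The log2 fold change of St3gal5 was -2.57 to -2.22 in CD45.1 TAµ against CD45.1 µ and -3.07 to -2.74 against CD45.2 µ over 12 alternatives, and the call against CD45.2 µ held in all 12. Of the members' fold changes that had not passed, the following changed sign. Without the 2 libraries they were -0.049 for B4galnt1 and -0.092 for Hexa in CD45.1 TAµ against CD45.1 µ, 0.029 for Ugcg and -0.33 for Gm2a in CD45.2 µ against CD45.1 µ, 0.12 for Gm2a and 0.66 for Glb1 in ICV against IV, 0.13 for St3gal2 and 0.47 for Glb1 in ITL against IV, and -0.19 for Glb1 in ITL against ICV. With library totals they were -0.037 for Gm2a in CD45.2 µ against CD45.1 µ and -0.071 for Glb1 in CD45.1 TAµ against CD45.2 µ. With voom they were -0.28 for Gm2a in CD45.2 µ against CD45.1 µ, and 0.30 and 0.38 for Glb1 in ICV and ITL against IV. Without the route term they were -0.090 for Gm2a in CD45.2 µ against CD45.1 µ, and 0.016 for Ugcg and -0.016 for Glb1 in CD45.1 TAµ against CD45.2 µ. With single libraries left out in CD45.1 TAµ against CD45.1 µ, log2 fold changes on both sides of 0 ran from -0.17 to 0.70 for B4galnt1 and -0.38 to 0.32 for Glb1. With single libraries left out in ICV against IV, log2 fold changes on both sides of 0 ran from -0.092 to 0.79 for B4galnt1, -0.68 to 0.25 for Glb1 and -0.0085 to 0.50 for Hexa. With single libraries left out in ITL against ICV, log2 fold changes on both sides of 0 ran from -0.14 to 0.69 for B4galnt1, -0.056 to 0.53 for Glb1, -0.37 to 0.098 for Hexa and -0.10 to 0.75 for St3gal2. With single libraries left out in CD45.1 TAµ against CD45.2 µ, log2 fold changes on both sides of 0 ran from -0.30 to 0.57 for Glb1 and -0.25 to 0.11 for Ugcg. With single libraries left out in CD45.2 µ against CD45.1 µ, log2 fold changes on both sides of 0 ran from -0.70 to 0.22 for Glb1, -0.17 to 0.22 for Gm2a, -0.29 to 0.17 for Hexa, -0.074 to 0.55 for St3gal5 and -0.25 to 0.093 for Ugcg. With single libraries left out in ITL against IV, log2 fold changes on both sides of 0 ran from -0.47 to 0.39 for Glb1, -0.12 to 0.36 for Hexa, -0.39 to 0.22 for St3gal2 and -0.56 to 0.13 for St3gal5. No paired analysis was possible because the labels carry no replicate or animal numbers. The lowest count of a member in any library was 63.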
